A study of Homo sapiens with 105 samples.

Results

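The TNF superfamily was followed here through 9 genes of the 19775 that the array annotation names with a probeset of their own: the ligands TNF, LTB, TNFSF10, TNFSF15 and TNFSF9, and the receptors TNFRSF9, TNFRSF10B, TNFRSF21 and TNFRSF12A. A probeset was taken where the annotation gives 1 of these symbols, which found 19 of 54613 probesets, each naming that gene alone. Where a gene had several probesets, the brightest over all arrays stood for it in counts, and the others were read beside it.

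Ligands of this superfamily are trimeric proteins, made at the cell surface or shed from it, and their receptors cluster on binding. Receptors with a death domain recruit FADD and caspases and can start apoptosis, whereas others bind TRAF adaptors and activate NFκB and MAP kinases. In squamous epithelium the family is known for inflammatory signalling, for talk between epithelial cells and lymphocytes, and for control of cell death.

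RNA was measured on Affymetrix U133 Plus 2.0 arrays in Vk2/E6E7 cells, a vaginal epithelial line immortalized with papillomavirus E6 and E7, so that all groups rest on 1 line. Cells were treated for 6 h with the pro-inflammatory or immunomodulatory compounds (PICs) TNF-α at 40 ng/ml, Pam3CSK4 at 10 μg/ml, MALP2 at 200 ng/ml, imiquimod (IMQ) at 30 μg/ml per the methods but mg/ml per the sample labels, and N-9 (nonoxynol-9) at 12.5 μg/ml. The non-inflammatory compounds (NICs) were the cellulose gels HEC and CMC at 1 mg/ml each, and the control was growth medium alone (GM). TNF-α is itself a member of the family, given as protein. Pam3CSK4 and MALP2 are lipopeptide ligands of TLR2, imiquimod is a TLR7 ligand and N-9 is a detergent. The comparisons used 5 TNF-α arrays, 6 each of Pam3CSK4, MALP2 and imiquimod, 9 each of N-9, HEC and CMC, and 53 of GM. The labels call the arrays biological replicates but do not say that they came from separate cultures, so p-values measure the spread between arrays, which may be technical. All 7 treatments were set against the same GM arrays.

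GM replicate 52 correlated with no other array above 0.0484, while all other pairs reached at least 0.835, and TNF-α replicate 6 equalled the mean of TNF-α replicates 1 to 3 to within 7.67e-09. Both were left out. Deviations from the group mean were shared within runs of 3 consecutive replicate numbers (median r = 0.231 within runs, -0.0568 between runs of a group), although no label names a batch. Each difference of a member from GM or between PICs was therefore also computed with the run as a random block. It was also computed with each run of the treatments compared left out. Where either ended a call of a member printed here, at least 1 such value is given, unless the text says that such fits are not given. Not every contrast between PICs at the other probesets is printed. The 8 epithelial markers measured lay between the 72.1st (KRT4) and the 100th (SFN) percentile of probeset brightness in GM, and none passed the test with any treatment. The 10 leukocyte markers lay between the 2.42nd (NKG7) and the 60th (ITGAM), with PTPRC at the 20.3rd. The 10 markers of fibroblasts and endothelium lay between the 9.55th (CDH5) and the 91st (COL1A1), and 1 of them was lower with Pam3CSK4, where their mean log2 signal ranged between 8.17 and 8.91, against 7.00 to 9.14 in GM. Of the leukocyte markers, 3 were lower with imiquimod, and with N-9 2 were higher and 1 was lower. Their mean log2 signal ranged between 5.89 and 6.41 with imiquimod and between 5.51 and 7.50 with N-9, against 5.84 to 7.41 in GM, and the part of these markers in the results was not tested.

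The plot of the brightest probesets by array shows the members that passed with a PIC. The 9 members were chosen with earlier results of these data known, so how many passed does not describe the family. TNFSF10 passed with TNF-α, Pam3CSK4 and MALP2, where it was higher, and with imiquimod, where it was lower. TNFRSF21 was lower and TNFSF15 higher with imiquimod. TNFRSF9 was higher with MALP2, and LTB, TNFSF9 and TNFRSF10B were higher with N-9. No member passed with HEC or CMC. Most of these calls were lost with runs as a block: of the 10, TNFSF10 with MALP2, TNFRSF21 with imiquimod and TNFSF9 with N-9 held, and each of these 3 was lost without 1 of its runs.

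**Figure D1:**
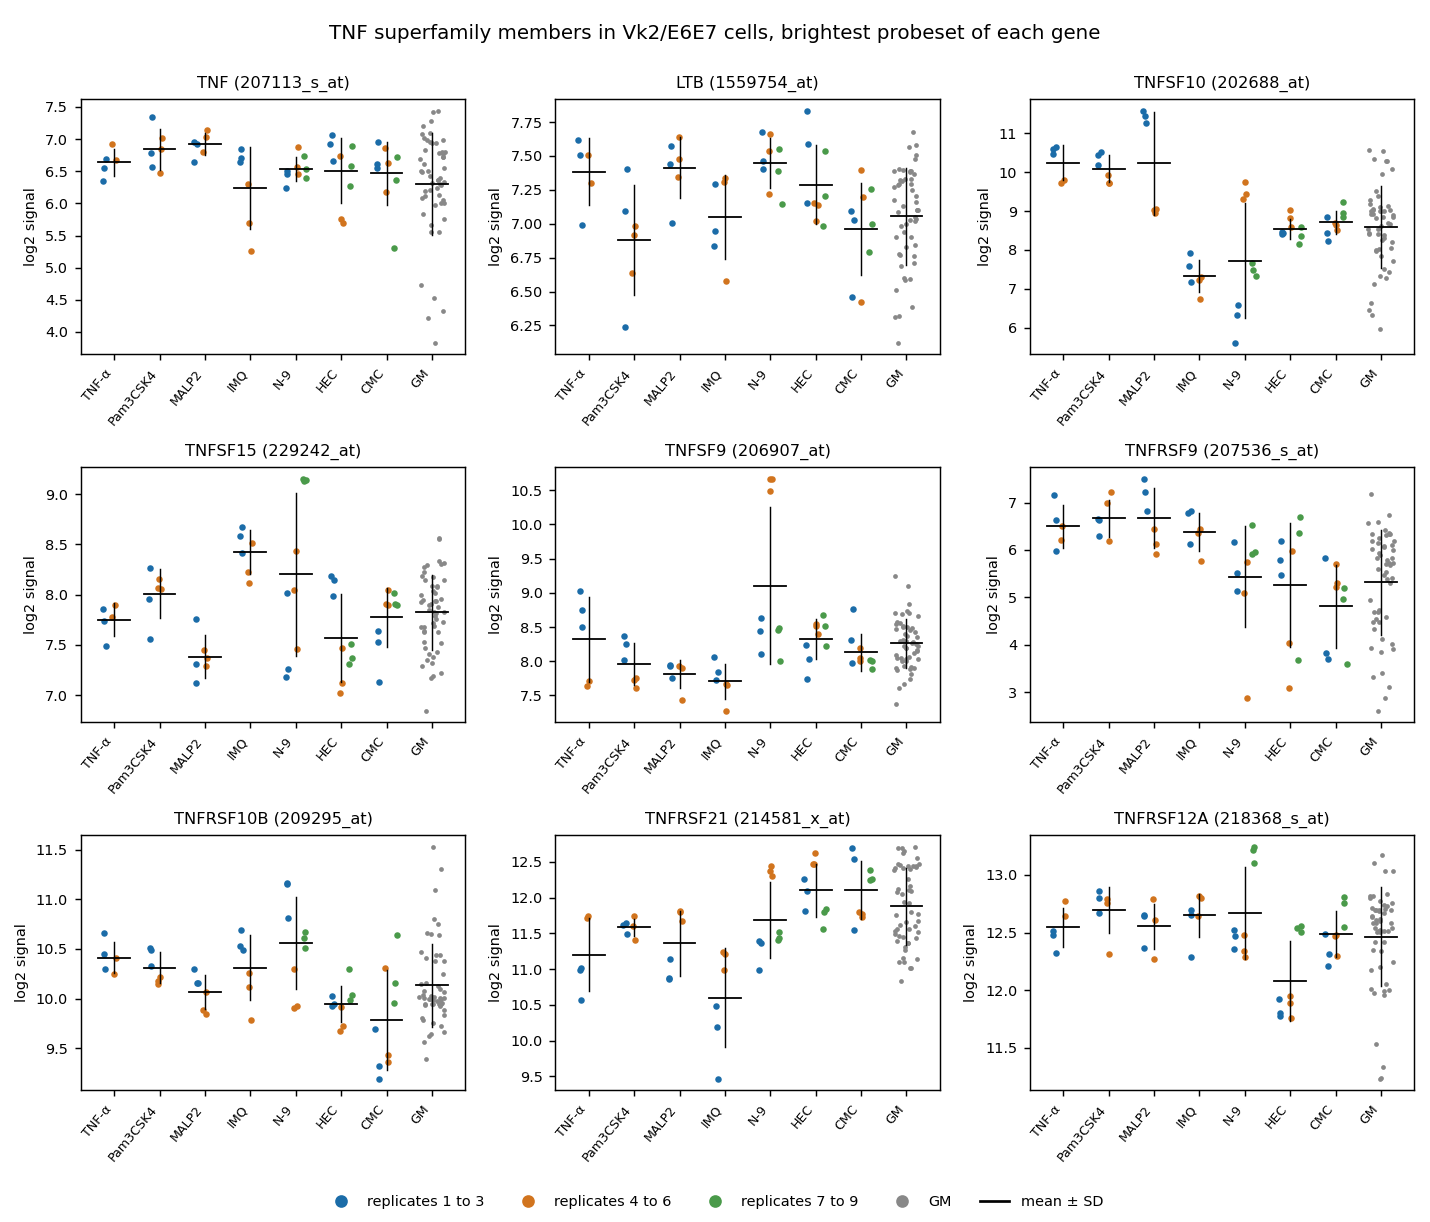
Log2 signal of the 9 members at the brightest probeset of each (vertical axes) in each array, by treatment from left to right with GM last. Points are arrays, coloured by run for the treatments, and bars show the mean ± SD. TNFSF10 stands at 7.32 with imiquimod and between 10.09 and 10.25 with TNF-α, Pam3CSK4 and MALP2 on average, and several N-9 groups split by run.

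Read against all probesets, 1 of the 9 members passed with TNF-α and was higher, against 0.72% of probesets that passed, 0.527% higher and 0.192% lower (limma, adjusted p under 0.05). With Pam3CSK4 1 member passed and was higher, against 2.17% of probesets, 1.31% higher and 0.859% lower. With MALP2 2 members were higher, against 6.95%, 3.28% higher and 3.68% lower. With imiquimod 1 member was higher and 2 were lower, against 10.9%, 4.68% higher and 6.19% lower. With N-9 3 members were higher, against 17.4%, 7.34% higher and 10.1% lower. With HEC and CMC no member passed in limma, against 0.793% and 0.00183% of probesets, while 8406 and 3899 probesets had an unadjusted p under 0.05. With runs as a block 0 members passed with TNF-α and Pam3CSK4, against 0.222% and 0.518% of probesets, and 1 each with MALP2, imiquimod and N-9, against 3.02%, 5.3% and 8.82%. The median log2 difference over the 9 members was 0.28 for TNF-α, 0.23 for N-9, 0.19 for Pam3CSK4, 0.09 for MALP2 and -0.01 for imiquimod, where the median over all probesets lay between -0.02 and 0.01.

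**Figure D2:**
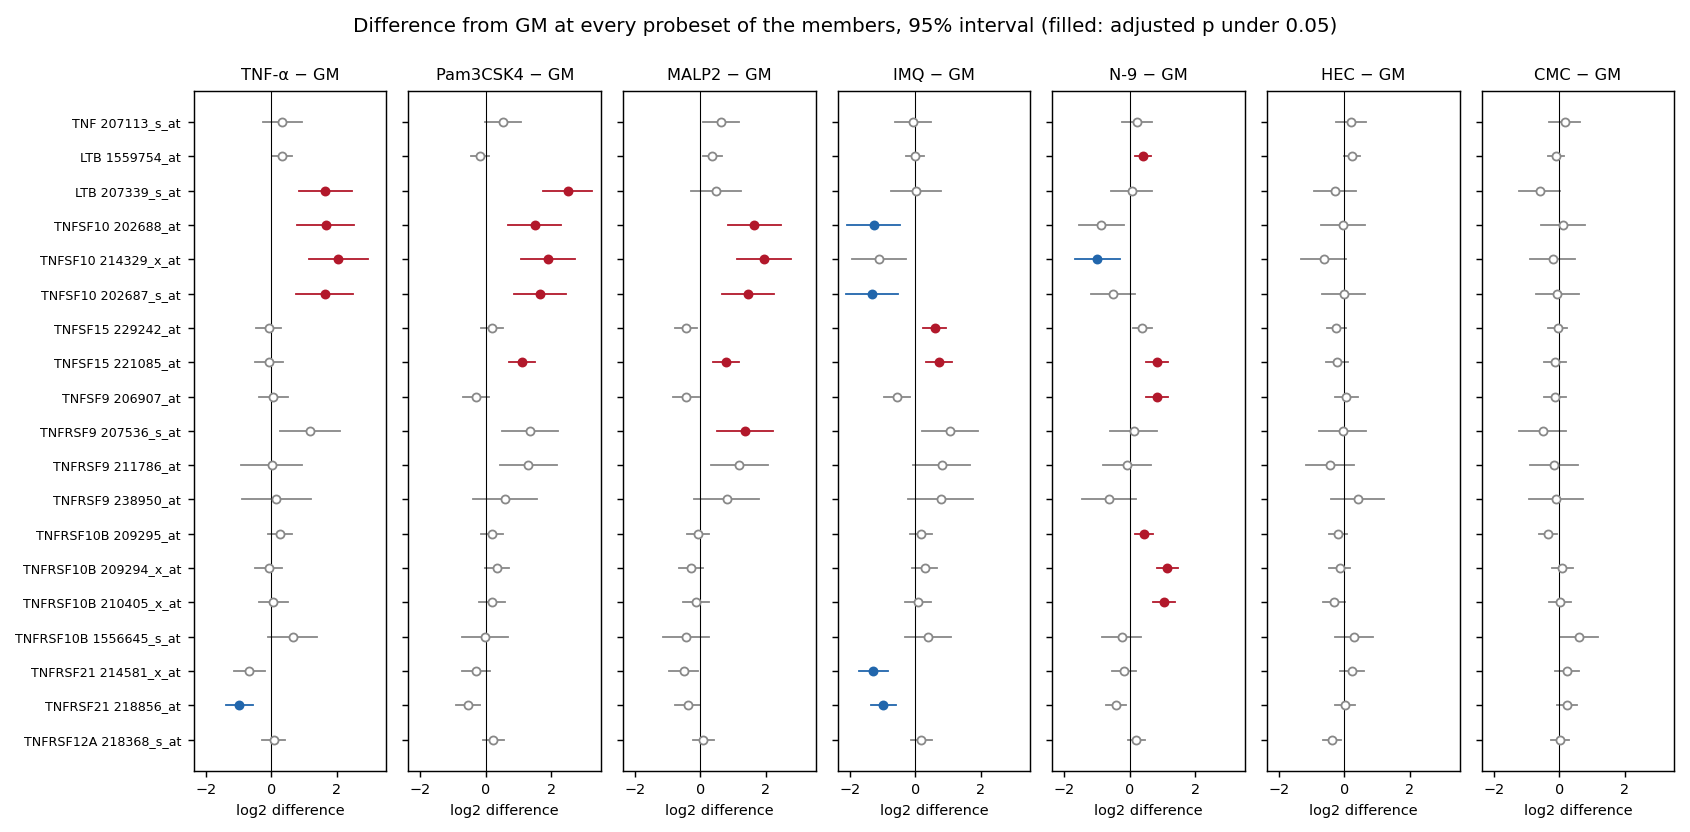
Log2 difference from GM (horizontal axes) with its 95% interval at each of the 19 probesets of the members, 1 panel per treatment. Filled points passed at an adjusted p under 0.05, in red where higher and in blue where lower than GM. The 3 TNFSF10 probesets move together with TNF-α, Pam3CSK4 and MALP2, whereas the probesets of LTB and TNFSF15 differ from each other.

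TNFSF10 encodes TRAIL, a ligand that induces apoptosis through death receptors such as TNFRSF10B, and it is known as an interferon-induced gene. The 250 bases before its start are shown because the gene passed with 4 treatments when runs were not a block (RefSeq, build GRCh38.p14, chr3:172523431-172523680, minus strand, written 5′ to 3′). Capitals mark a match to GAAA, any 2 bases and GAAA, the core of the interferon-stimulated response element, on the opposite strand, 187 bases before the start.
TNFSF10: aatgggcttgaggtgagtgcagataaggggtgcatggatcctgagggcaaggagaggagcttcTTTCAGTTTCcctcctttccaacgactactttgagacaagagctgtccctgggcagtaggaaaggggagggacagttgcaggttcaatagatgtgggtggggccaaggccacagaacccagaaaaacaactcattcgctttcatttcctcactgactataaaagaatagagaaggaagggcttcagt
Of 35116 promoter windows of this length, 3.02% held this core on either strand and 10.7% held TATAAA, which lay 31 bases before the start here. A match is a description of the letters, not a site. Promoters of 7 of the 9 members were in the table, and 1 other member, TNFSF9, held the same core, 194 bases before its start.

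At 202688_at, the brightest TNFSF10 probeset, the log2 signals with TNF-α were 10.48, 10.59, 10.66, 9.73 and 9.79. With Pam3CSK4 they ran between 9.71 and 10.51 (median 10.07), and with MALP2 between 8.94 and 11.59 (median 10.16). In GM they ran between 5.97 and 10.58 with a median of 8.69. All arrays of the 3 treatments lay above the GM median, but 12 of the 17 lay inside the GM range. The log2 difference from GM was 1.66 ± 0.44 (SE) with TNF-α (3.17-fold, adjusted p = 0.0448), 1.50 ± 0.41 with Pam3CSK4 (2.83-fold, adjusted p = 0.0258) and 1.64 ± 0.41 with MALP2 (3.11-fold, adjusted p = 0.00388, limma). In RNA of whole cultures, more or fewer cells that express a gene and more or less RNA per cell cannot be told apart.

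The MALP2 arrays fell into separate runs. Replicates 1, 2 and 3 had TNFSF10 at 11.59, 11.46 and 11.27, and replicates 4, 5 and 6 at 9.04, 8.94 and 9.06. Without replicates 1 to 3 the MALP2 difference was 0.43 ± 0.54 (adjusted p = 0.811), and without replicates 4 to 6 it was 2.85 ± 0.54 (adjusted p = 0.000137). With TNF-α and Pam3CSK4 the runs were closer: the means of the 2 runs were 10.58 and 9.76 with TNF-α and 10.39 and 9.79 with Pam3CSK4. GM itself ranged widely, with run means between 6.47 and 10.30 over 18 runs.

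With runs as a random block the adjusted p of TNFSF10 at 202688_at was 0.163 for TNF-α, 0.113 for Pam3CSK4 and 0.0179 for MALP2. The call with TNF-α was lost when any 1 of its 5 arrays was left out (adjusted p between 0.059 and 0.228), and the call with Pam3CSK4 without replicate 1, 2, 3 or 4 (at most 0.0919). The other 2 probesets gave like differences. At 214329_x_at they were 2.06 ± 0.45 with TNF-α, 1.91 ± 0.42 with Pam3CSK4 and 1.95 ± 0.42 with MALP2, with an adjusted p between 0.00365 and 0.0283 when runs were a block. At 202687_s_at they were 1.63 ± 0.43, 1.66 ± 0.40 and 1.45 ± 0.40 in the same order, and of these the MALP2 call held with runs as a block (adjusted p = 0.0487) and the others did not (0.188 and 0.0585). Without replicates 1 to 3 of the treatment, none of the 9 TNFSF10 differences passed for these 3 treatments, and the adjusted p lay between 0.274 and 0.994. Without the later run, 202688_at also missed with TNF-α (0.0562) and Pam3CSK4 (0.125). Leaving out single arrays also ended calls at 214329_x_at with TNF-α (replicates 1, 2 and 3, at most 0.0667), and at 202687_s_at with TNF-α (any of the 5, at most 0.24), Pam3CSK4 (replicate 1, 0.0603) and MALP2 (replicates 1, 2 and 3, at most 0.11).

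With imiquimod TNFSF10 was lower. The 6 imiquimod arrays ran between 6.73 and 7.92 (median 7.26) at 202688_at, all below the GM median and all inside the GM range. The log2 difference was -1.26 ± 0.41 (2.40-fold lower, adjusted p = 0.0288) at this probeset and -1.31 ± 0.40 (adjusted p = 0.0177) at 202687_s_at, while -1.10 ± 0.42 at 214329_x_at did not pass (adjusted p = 0.0758). With runs as a block the first of these had an adjusted p of 0.0868, and it was lost without imiquimod replicate 1, 3, 4, 5 or 6 (at most 0.092) and without either run (0.133 and 0.289). At 202687_s_at the adjusted p was 0.0683 with runs as a block and at most 0.0673 without replicate 3 or 5. The ratio of ACTB 3′ to 5′ probesets, a sign of RNA quality, was 0.96 ± 0.52 on the log2 scale with imiquimod (SD, n = 6). In GM it was 0.44 ± 0.24 (SD, n = 53), with a highest array of 1.81. The same ratio of GAPDH was 0.07 ± 0.26 with imiquimod and -0.02 ± 0.22 in GM. The part of RNA quality in the imiquimod results was not tested.

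N-9 gave 3 levels of TNFSF10. Replicates 1 to 3 had 6.33, 5.61 and 6.59, replicates 4 to 6 had 9.75, 9.44 and 9.32, and replicates 7 to 9 had 7.65, 7.48 and 7.33. Over all 9 arrays the difference from GM at 202688_at was -0.87 ± 0.34 and did not pass (adjusted p = 0.0662), and without replicates 4 to 6 it was -1.76 ± 0.38 (adjusted p = 0.000264). The probeset 214329_x_at passed over all 9 arrays at -1.0 ± 0.35 (adjusted p = 0.0336, 0.0941 with runs as a block), and lost the call without N-9 replicate 1, 2, 3, 8 or 9 (at most 0.0812). At 202687_s_at the N-9 difference was -0.52 ± 0.33 and did not pass (adjusted p = 0.314). At 202688_at HEC and CMC arrays lay between 8.15 and 9.23, close to the GM median. At 214329_x_at HEC arrays ran between 6.77 and 8.37, with 8 of the 9 below the GM median of 8.20. CMC arrays ran between 6.21 and 9.01 there. Neither difference passed (-0.64 ± 0.35 with HEC and -0.19 ± 0.35 with CMC).

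**Figure D3:**
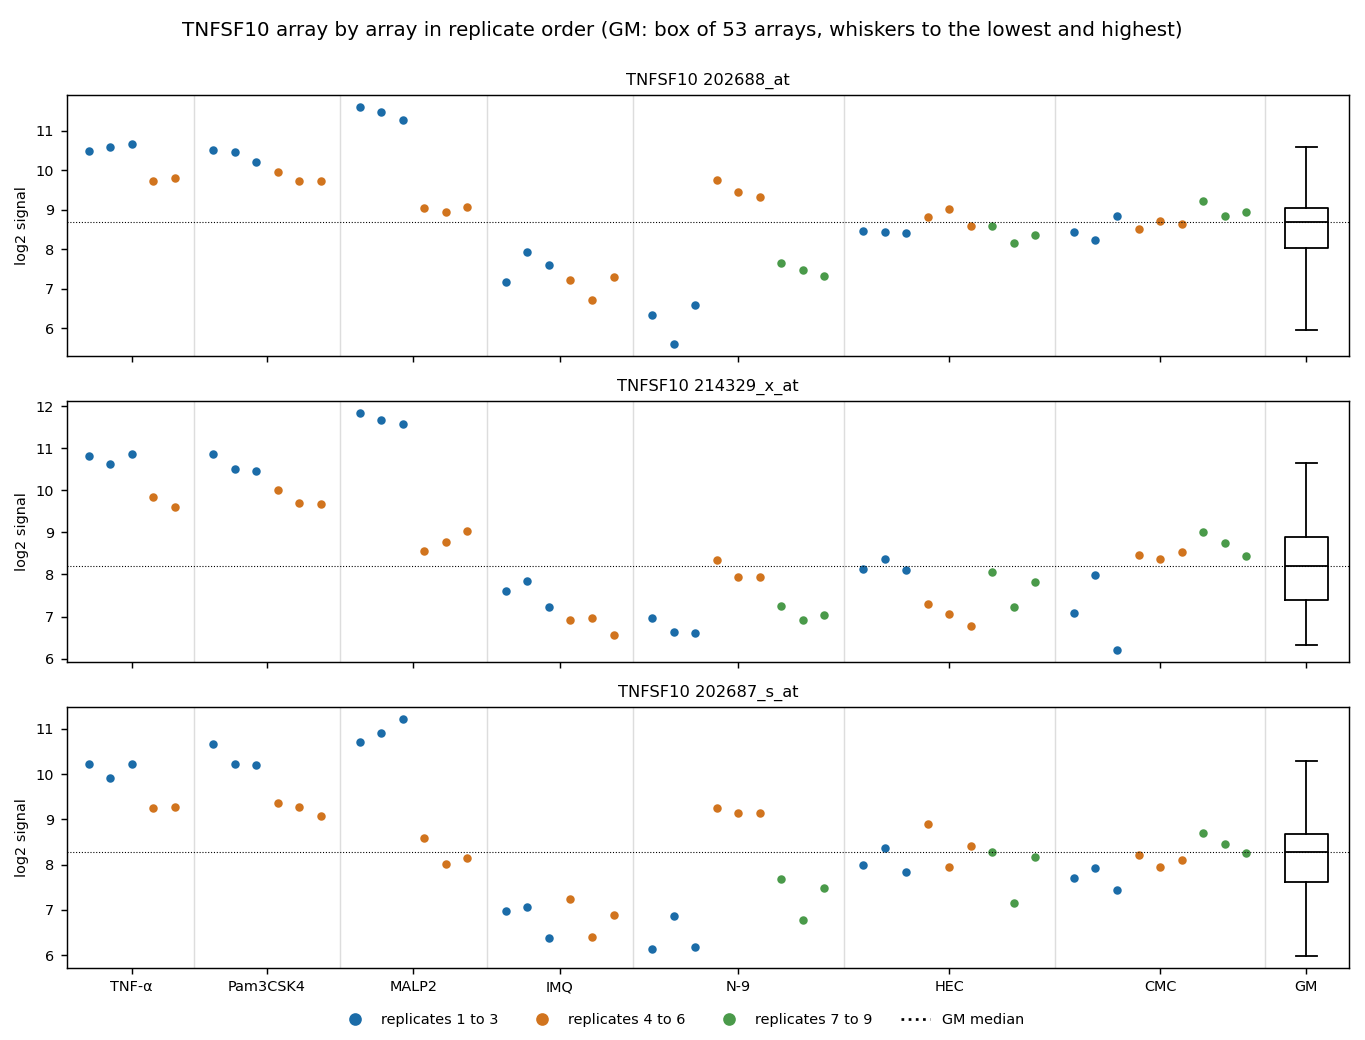
Log2 signal of the 3 TNFSF10 probesets (1 panel each, vertical axis) for each treated array in replicate order, coloured by run, with GM as a box over 53 arrays whose whiskers reach the lowest and highest array. The dotted line is the GM median. The MALP2 arrays split into a run near 11.4 and a run near 9.0 at 202688_at, and the N-9 arrays into 3 levels.

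LTB encodes lymphotoxin beta, the membrane anchor of the lymphotoxin heterotrimer that binds LTBR, and is known as an NFκB target. Its promoter is shown because the gene had the largest fold change among the members, with Pam3CSK4. Capitals in the 250 bases before its start (RefSeq, GRCh38.p14, chr6:31582425-31582674, minus strand, 5′ to 3′) mark a match to the kappaB consensus on the opposite strand, 87 bases before the start.
LTB: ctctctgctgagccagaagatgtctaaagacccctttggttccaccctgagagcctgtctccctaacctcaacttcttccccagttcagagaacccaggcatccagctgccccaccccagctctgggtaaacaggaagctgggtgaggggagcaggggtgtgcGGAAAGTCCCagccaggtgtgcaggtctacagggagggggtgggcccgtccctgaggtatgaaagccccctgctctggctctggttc
Of the 35116 windows 5.21% held the kappaB consensus on either strand, and among the 7 member promoters LTB and TNFRSF9 did. The match describes letters and names no bound factor.

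The 2 LTB probesets disagreed (r = -0.0913 across the 103 arrays). The probeset 207339_s_at, annotated to the RefSeq transcript, stood at 7.82, 7.76, 8.15, 7.88 and 7.65 with TNF-α and between 8.07 and 9.10 (median 8.76) with Pam3CSK4, against 3.59 to 7.67 (median 6.16) in GM. All 6 Pam3CSK4 arrays and 4 of the 5 TNF-α arrays lay above every GM array. LTB was 5.66-fold higher with Pam3CSK4 (log2 difference 2.50 ± 0.38, adjusted p = 2.52e-06, 0.00927 with runs as a block) and 3.16-fold higher with TNF-α (1.66 ± 0.41, adjusted p = 0.0246). The Pam3CSK4 call held without either run (adjusted p = 0.0202 and 0.000408). The TNF-α call was lost with runs as a block (adjusted p = 0.555) without either run (0.809 and 0.0952) and without TNF-α replicate 1, 2, 3 or 4 (at most 0.151).

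With MALP2 the same LTB probeset split by run, at 7.36, 7.20 and 7.75 in replicates 1 to 3 and 6.21, 5.89 and 5.61 in replicates 4 to 6, and the difference from GM was 0.48 ± 0.38 (adjusted p = 0.575). Imiquimod split likewise, at 7.33, 7.07 and 7.88 against 5.76, 4.20 and 5.05, with a difference of 0.02 ± 0.38. The other probeset, 1559754_at, is annotated to a cDNA clone and was the brighter. There N-9 arrays ran between 7.14 and 7.68 (median 7.46), against 6.12 to 7.68 (median 7.10) in GM, with all 9 above the GM median and 1 above the GM range. That is a log2 difference of 0.40 ± 0.12 (1.32-fold, adjusted p = 0.013), which was lost with runs as a block (adjusted p = 0.242) and without replicates 1 to 3 or 4 to 6 (0.0869 and 0.0584). Neither TNF-α (0.33 ± 0.16) nor Pam3CSK4 (-0.18 ± 0.14) passed at 1559754_at. At 207339_s_at LTB did not pass with N-9 (0.05 ± 0.32, adjusted p = 0.941, limma), where arrays ran between 3.80 and 7.76.

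TNF encodes TNF-α itself, the founding ligand of the family and an NFκB target. None of the treatments passed at its probeset. TNF-α gave a log2 difference of 0.34 ± 0.30, Pam3CSK4 gave 0.54 ± 0.28, MALP2 gave 0.62 ± 0.28, imiquimod gave -0.06 ± 0.28 and N-9 gave 0.23 ± 0.23. All 6 Pam3CSK4 arrays (6.48 to 7.34) and all 6 MALP2 arrays (6.65 to 7.13) lay above the GM median of 6.39, and all were inside the GM range of 3.83 to 7.44. Imiquimod split by run, at 6.85, 6.64 and 6.71 in replicates 1 to 3 and 6.31, 5.69 and 5.26 in replicates 4 to 6.

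TNFSF15 encodes TL1A, a ligand known from endothelium and myeloid cells that binds TNFRSF25 and costimulates T cells. Its 2 probesets correlated at r = 0.501 and gave different calls. At 221085_at, annotated to the RefSeq transcript, the 6 Pam3CSK4 arrays ran between 7.04 and 7.46, against 4.12 to 7.16 (median 6.20) in GM, so that 5 of the 6 lay above every GM array. TNFSF15 was 2.15-fold higher with Pam3CSK4 (log2 difference 1.10 ± 0.20, adjusted p = 0.000131, 0.0344 with runs as a block). Without Pam3CSK4 replicates 1 to 3 the difference was 1.01 ± 0.28 (adjusted p = 0.0517).

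MALP2 arrays at this TNFSF15 probeset ran between 6.49 and 7.20 and imiquimod arrays between 6.52 and 7.41, all above the GM median. The differences were 0.77 ± 0.20 with MALP2 (adjusted p = 0.00598) and 0.73 ± 0.20 with imiquimod (adjusted p = 0.00764), and with runs as a block they had adjusted p = 0.137 and 0.134. The imiquimod call was also lost without imiquimod replicate 1 or 2 (at most 0.0563). Without replicates 1 to 3 the MALP2 and imiquimod differences had adjusted p = 0.398 and 0.471. TNF-α arrays, at 6.22, 6.12, 6.29, 5.97 and 5.92, lay around the GM median, with a difference of -0.06 ± 0.22.

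With N-9 the increase of TNFSF15 at 221085_at was 0.83 ± 0.17 (1.77-fold, adjusted p = 8.53e-05, 0.0107 with runs as a block). It rested on 1 run: replicates 7, 8 and 9 stood at 8.01, 8.16 and 8.00, above every GM array, and the other 6 between 6.12 and 6.83. Without replicates 7 to 9 the difference was 0.29 ± 0.18 (adjusted p = 0.256). At the brighter probeset, 229242_at, the same 3 arrays stood at 9.14, 9.13 and 9.15, against 6.85 to 8.56 in GM, and the N-9 difference was 0.38 ± 0.15 (adjusted p = 0.0584), or 0.74 without N-9 replicates 1 to 3 (adjusted p = 0.000356). Imiquimod passed here, with arrays between 8.12 and 8.68 (median 8.46), against a GM median of 7.85, a difference of 0.60 ± 0.18 (adjusted p = 0.0127, 0.0793 with runs as a block, 0.0547 without imiquimod replicate 2 and 0.365 without replicates 1 to 3). Pam3CSK4 (0.19 ± 0.18) and MALP2 (-0.44 ± 0.18) did not pass, the second with the opposite sign to its value at 221085_at.

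TNFSF9 encodes 4-1BB ligand, which costimulates T cells through TNFRSF9. With N-9 the log2 signals were 8.44, 8.10 and 8.63 in replicates 1 to 3, 10.49, 10.67 and 10.67 in replicates 4 to 6, and 8.45, 8.49 and 8.00 in replicates 7 to 9. GM arrays ran between 7.37 and 9.25 (median 8.25), so that 1 run of N-9 lay above all of them and the other 2 runs inside their range. The difference over all 9 arrays was 0.84 ± 0.17 (1.80-fold, adjusted p = 7.8e-05, 0.00127 with runs as a block). Without replicates 4 to 6 it was 0.09 ± 0.15 (adjusted p = 0.742). All 6 imiquimod arrays (7.28 to 8.06) and all 6 MALP2 arrays (7.43 to 7.94) lay below the GM median, and neither difference passed (-0.56 ± 0.20, adjusted p = 0.0641, and -0.45 ± 0.20, adjusted p = 0.211).

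TNFRSF10B encodes a death receptor for TRAIL, which recruits FADD and caspase-8 and is known as a target of p53 and of the stress factor CHOP. It was higher with N-9 at 3 of its 4 probesets. At 209294_x_at the 9 N-9 arrays ran between 8.88 and 9.49 (median 9.13), against 6.48 to 9.01 (median 8.02) in GM, and 7 of the 9 lay above every GM array. The log2 difference was 1.15 ± 0.16 (2.22-fold, adjusted p = 1.04e-08, 3.1e-05 with runs as a block), and it was between 1.09 and 1.18 whichever run was left out (adjusted p at most 6.47e-06). HEC arrays at this probeset reached 8.91 and CMC arrays 9.11, inside the N-9 range.

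At 210405_x_at the N-9 arrays of TNFRSF10B ran between 8.36 and 9.62 (median 8.84), against 7.28 to 9.12 (median 7.71) in GM, and all 9 lay above the GM median. The difference was 1.06 ± 0.17 (adjusted p = 6.25e-07, 0.000316 with runs as a block). The brightest probeset, 209295_at, gave 0.43 ± 0.14 (adjusted p = 0.0223), which was lost with runs as a block (adjusted p = 0.124), without N-9 replicate 1, 2 or 3 (at most 0.0945) and without the run of replicates 1 to 3 (0.522) or 7 to 9 (0.0781). Its N-9 arrays stood at 11.15, 10.81 and 11.16 in replicates 1 to 3 and at 9.91, 9.92 and 10.30 in replicates 4 to 6. At 210405_x_at these runs stood the other way, at 8.44, 8.56 and 8.39 in replicates 1 to 3 and 9.53, 9.62 and 9.17 in replicates 4 to 6. The dim 1556645_s_at gave -0.25 ± 0.29. Names that end in x_at mark probesets whose probes can also match other transcripts, so TNFRSF10B is uncertain where it rests on these, as are the other genes read at such probesets. No other treatment passed at any of the 4 probesets. At 209294_x_at and 210405_x_at TNFRSF10B was lower with each of the other 4 PICs than with N-9, with log2 differences of -0.81 to -1.44 and -0.86 to -1.18 (adjusted p at most 0.0252). With runs as a block MALP2 at both probesets (adjusted p = 0.00235 and 0.0353) and TNF-α at 209294_x_at (0.0211) still passed, also without any 1 run of either treatment (at most 0.0443), while the other 5 contrasts were lost with the block (0.153 to 0.28). At the brightest TNFRSF10B probeset, 209295_at, TNF-α stood at -0.15 relative to N-9, Pam3CSK4 and imiquimod at -0.25 each and MALP2 at -0.49, and none of these contrasts passed (adjusted p between 0.191 and 0.849). At 1556645_s_at TNF-α stood 0.91 above N-9, which did not pass (adjusted p = 0.322).

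**Figure D4:**
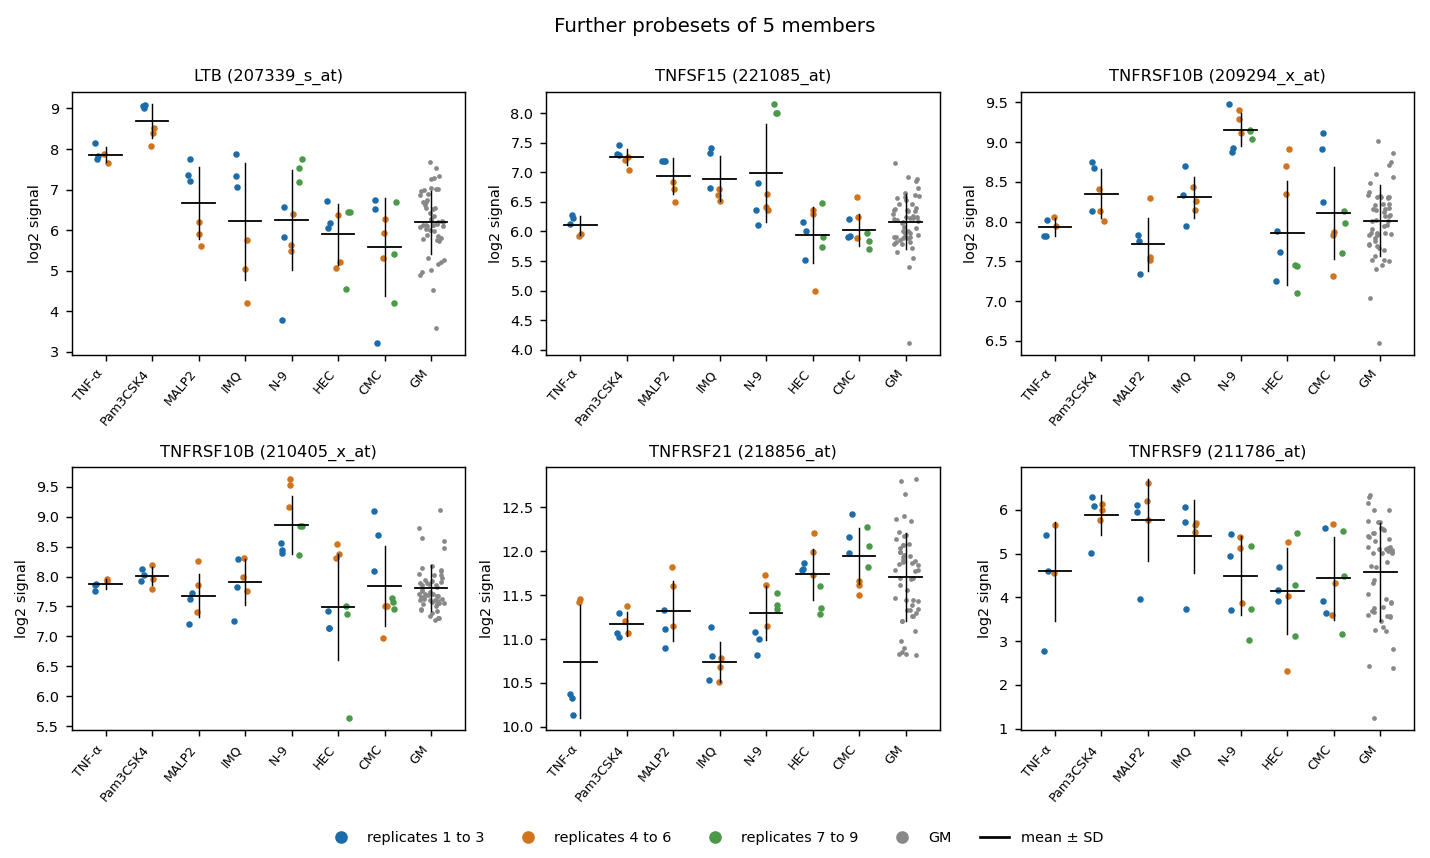
Log2 signal (vertical axes) of 6 further probesets of the members in each array, by treatment with GM last. Points are arrays, coloured by run for the treatments, and bars show the mean ± SD. LTB at 207339_s_at reaches 8.07 to 9.10 with Pam3CSK4, and TNFRSF10B at 209294_x_at reaches 8.88 to 9.49 with N-9.

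TNFRSF21 encodes death receptor 6, which has a death domain and is bright in these cells. With imiquimod it was lower at both probesets. At 214581_x_at the imiquimod arrays stood at 10.19, 10.48 and 9.47 in replicates 1 to 3 and 10.98, 11.24 and 11.22 in replicates 4 to 6, against 10.83 to 12.71 (median 11.81) in GM. All 6 lay below the GM median and 3 below every GM array. The difference was -1.28 ± 0.22 (2.43-fold lower, adjusted p = 4.79e-06, 0.000252 with runs as a block), and without replicates 1 to 3 it was -0.73 ± 0.29 (adjusted p = 0.165).

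At 218856_at the imiquimod arrays of TNFRSF21 ran between 10.51 and 11.14, against 10.82 to 12.82 (median 11.78) in GM, and 5 of the 6 lay below every GM array. The difference of -0.97 ± 0.19 (1.96-fold lower, adjusted p = 6e-05, 0.00176 with runs as a block) held without either run (adjusted p = 0.00604 and 0.0158). The ACTB and GAPDH ratios given above belong to these arrays too. With TNF-α the same probeset stood at 10.13, 10.32 and 10.37 in replicates 1 to 3 and 11.42 and 11.46 in replicates 4 and 5. Its difference was also -0.97 ± 0.20 (adjusted p = 0.00322), but it was lost with runs as a block (adjusted p = 0.0743), without replicate 1, 2 or 3 (at most 0.109) and without that run, where it was -0.27 ± 0.30. Pam3CSK4 and MALP2 arrays lay mostly below the GM median at both probesets and did not pass, nor did TNF-α at 214581_x_at (-0.67 ± 0.24, adjusted p = 0.245).

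TNFRSF9 encodes 4-1BB (CD137), an activation-induced costimulatory receptor of T cells and a target of NFκB and AP-1. Its promoter (RefSeq, GRCh38.p14, chr1:7940840-7941089, minus strand, 5′ to 3′) is shown because it held matches to both motifs. Capitals mark overlapping kappaB consensus matches on the 2 strands, 74 and 73 bases before the start, and TGANTCA (AP-1) 44 bases before it.
TNFRSF9: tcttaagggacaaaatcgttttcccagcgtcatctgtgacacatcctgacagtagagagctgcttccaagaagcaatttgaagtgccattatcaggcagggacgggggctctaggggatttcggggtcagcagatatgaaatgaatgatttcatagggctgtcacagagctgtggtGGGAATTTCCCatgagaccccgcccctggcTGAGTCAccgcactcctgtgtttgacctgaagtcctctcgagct
TGANTCA was in 6.57% of the 35116 windows, and among the member promoters also in that of TNFSF15.

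TNFRSF9 was dim in GM (33.7th percentile of brightness at 207536_s_at), and its arrays scattered widely. MALP2 arrays stood at 7.50, 7.23 and 6.83 in replicates 1 to 3 and 6.12, 5.91 and 6.44 in replicates 4 to 6, against 2.61 to 7.18 (median 5.69) in GM. All 6 lay above the GM median and 2 above every GM array. The difference was 1.36 ± 0.43 (2.57-fold, adjusted p = 0.0343), which was lost with runs as a block (adjusted p = 0.499), without either run (0.589 and 0.052) and without MALP2 replicate 1, 2, 3 or 6 (at most 0.141). Every array of TNF-α (5.98 to 7.16), Pam3CSK4 (6.18 to 7.23) and imiquimod (5.76 to 6.82) also lay above the GM median, but none of their differences passed: 1.18 ± 0.47 (adjusted p = 0.369), 1.35 ± 0.43 (0.0762) and 1.07 ± 0.43 (0.0994). N-9 gave 0.12 ± 0.36. The other 2 probesets were dimmer and none of their differences passed.

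TNFRSF12A encodes Fn14, the receptor of TWEAK (TNFSF12), known as a growth factor-induced gene of epithelium and fibroblasts. Its probeset was among the brightest on the array (97th percentile in GM), and no treatment passed. The differences lay between -0.39 ± 0.13 with HEC (adjusted p = 0.141) and 0.23 ± 0.16 with Pam3CSK4. With HEC all 9 arrays lay below the GM median of 12.59, at 11.76 to 11.95 in replicates 1 to 6 and 12.51, 12.54 and 12.56 in replicates 7 to 9, and without the last run the difference was -0.61 (adjusted p = 0.0119). N-9 replicates 7 to 9, at 13.24, 13.11 and 13.22, lay above the other 6 N-9 arrays (12.29 to 12.52).

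Set against each other at the doses given, the 5 PICs differed at the brightest probeset in 14 of the 90 member contrasts (10 pairs of 9 members, adjusted over all probesets and pairs together). Over all probesets the share that passed was 0.311% for TNF-α against Pam3CSK4, 0.872% for TNF-α against MALP2, 2.92% for TNF-α against imiquimod, 6.53% for TNF-α against N-9 and 0.941% for Pam3CSK4 against MALP2. It was 3.4% for Pam3CSK4 against imiquimod, 8.5% for Pam3CSK4 against N-9, 2.64% for MALP2 against imiquimod, 9.72% for MALP2 against N-9 and 8.13% for imiquimod against N-9. TNFSF10 accounted for 6 of the 14: it was higher with TNF-α, Pam3CSK4 and MALP2 than with imiquimod (log2 difference 2.93 ± 0.57, 2.77 ± 0.55 and 2.90 ± 0.55) and than with N-9 (2.53 ± 0.53, 2.37 ± 0.50 and 2.51 ± 0.50). No array of TNF-α, Pam3CSK4 or MALP2 overlapped with imiquimod, the lowest of each being 9.73, 9.71 and 8.94, against 7.92 for the highest with imiquimod. With N-9 they overlapped. N-9 replicates 4 to 6, at 9.75, 9.44 and 9.32, lay above MALP2 replicates 4 to 6, at 9.04, 8.94 and 9.06, and the highest of them lay above the lowest TNF-α and Pam3CSK4 arrays. The 6 TNFSF10 contrasts also passed with runs as a block (adjusted p at most 0.00517), but 5 of them were lost without 1 run. Without TNF-α replicates 1 to 3 the adjusted p was 0.0616 against imiquimod and 0.129 against N-9, without MALP2 replicates 1 to 3 it was 0.145 and 0.294, and without N-9 replicates 1 to 3 it was 0.0563 for Pam3CSK4.

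TNFSF9 was lower with Pam3CSK4, MALP2 and imiquimod than with N-9 (-1.15, -1.29 and -1.40, each ± 0.25), where N-9 replicates 4 to 6 hold the high values. Without that run the contrasts were -0.40, -0.54 and -0.65, and imiquimod alone passed (adjusted p = 0.339, 0.128 and 0.0471). The Pam3CSK4 contrast was also lost without Pam3CSK4 replicates 4 to 6 (0.105). TNFSF15 at 229242_at was lower with MALP2 than with imiquimod (-1.04 ± 0.23, adjusted p = 0.00185), and their arrays did not overlap, at 7.12 to 7.76 with MALP2 and 8.12 to 8.68 with imiquimod. It passed with runs as a block (adjusted p = 0.0256) and was lost without imiquimod replicates 1 to 3 (0.0627). At the other TNFSF15 probeset, 221085_at, MALP2 minus imiquimod was 0.05 ± 0.27 (adjusted p = 0.97). TNFRSF21 at 214581_x_at was lower with imiquimod than with N-9 (-1.09 ± 0.27, adjusted p = 0.00498, 0.0489 with runs as a block), which was lost without imiquimod replicates 1 to 3 (0.502) or N-9 replicates 4 to 6 (0.133). At 218856_at the same TNFRSF21 contrast was -0.55 ± 0.23 and did not pass (adjusted p = 0.189). The other 3 contrasts, TNFRSF21 between Pam3CSK4 and imiquimod, LTB at 1559754_at between Pam3CSK4 and N-9, and TNFSF15 between MALP2 and N-9, were lost with runs as a block (adjusted p = 0.171, 0.573 and 0.0813). The LTB contrast was -0.57 ± 0.18 for Pam3CSK4 minus N-9 at 1559754_at. At 207339_s_at it had the opposite sign (2.45 ± 0.47, adjusted p = 0.000138, 0.0395 with runs as a block). Fits of this last contrast without 1 run are not given.

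Pam3CSK4, a triacylated lipopeptide, and MALP2, a diacylated one, were given at different doses, so their values stand side by side as conditions. Their brightest-probeset contrasts all missed the threshold. At 207339_s_at LTB was higher with Pam3CSK4 than with MALP2 (2.02 ± 0.51, adjusted p = 0.00699), with the lowest Pam3CSK4 array at 8.07 and the highest MALP2 array at 7.75. That call was lost with runs as a block (adjusted p = 0.235), without Pam3CSK4 replicates 1 to 3 (0.148) and without MALP2 replicates 4 to 6 (0.31). At 1559754_at LTB went the other way, at -0.53 ± 0.19 (unadjusted p = 0.00711, adjusted p = 0.109, limma).

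HEC and CMC, cellulose ethers that carry hydroxyethyl and carboxymethyl groups, shared 1 dose and time and make 1 pair. None of the 19 member probesets differed between them in limma, as with all probesets (0 of 54613, with 3877 at an unadjusted p under 0.05). The smallest unadjusted p of the members was that of TNFRSF12A, at -0.41 for HEC minus CMC (95% interval -0.76 to -0.06, adjusted p = 0.639). LTB at 1559754_at had 0.33 (0.01 to 0.64), and TNFSF10 at 202688_at had -0.17 (-1.06 to 0.72). The intervals leave room for differences of this size.

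The rest of the superfamily was read from a list of 13 other ligands, of which 11 had a probeset of their own, and a list of 25 other receptors, of which 24 did. Of the ligands, EDA alone passed, 1 of 11 against 6.95% of all probesets, lower with MALP2 (-1.38 ± 0.42, adjusted p = 0.024, 0.395 with runs as a block, at most 0.255 without MALP2 replicate 2, 3 or 6). No other receptor passed with TNF-α or Pam3CSK4, and 3 of the 24 passed with MALP2 and 2 with imiquimod, against 6.95% and 10.9% of all probesets. With MALP2 TNFRSF1B, the second TNF receptor, and TNFRSF11A, the receptor of RANK ligand, were higher (1.53 and 0.56) and NGFR was lower (-1.61), and all 3 were lost with runs as a block (adjusted p = 0.465, 0.373 and 0.0683). TNFRSF1B was also lost without MALP2 replicate 1, 2, 3, 5 or 6 (at most 0.214) and TNFRSF11A without replicate 1, 2 or 3 (at most 0.252).

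With imiquimod TNFRSF8 (CD30) was lower (log2 difference -1.49 ± 0.32, adjusted p = 0.000347), with arrays between 7.52 and 8.54, against 7.48 to 11.1 in GM. TNFRSF10D, a decoy receptor that binds TRAIL and lacks a working death domain, was lower with imiquimod (-1.18 ± 0.38, adjusted p = 0.0284, 0.0965 with runs as a block, at most 0.077 without imiquimod replicate 1, 4, 5 or 6) and with N-9 (-1.41 ± 0.32, adjusted p = 0.000435). The N-9 arrays of TNFRSF10D ran between 5.79 and 9.04 (median 6.44), against 6.73 to 10.6 (median 7.92) in GM. N-9 passed at 7 of the 24 other receptors, 2 higher and 5 lower, against 17.4% of all probesets, 7.34% higher and 10.1% lower, with RELT next in size (-0.98 ± 0.23) and NGFR the highest (0.91 ± 0.33, adjusted p = 0.0408, 0.22 with runs as a block, at most 0.103 without N-9 replicate 3, 4, 5 or 6).

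Of 19 adaptors and effectors, 14 had a probeset of their own. CFLAR, read at an x_at probeset, whose protein FLIP blocks caspase-8 at death receptors, was higher with all 5 PICs. MALP2 gave a log2 difference of 2.06 ± 0.17, imiquimod of 1.40 ± 0.17, Pam3CSK4 of 1.35 ± 0.17, TNF-α of 0.92 ± 0.19 and N-9 of 0.65 ± 0.15, and each call held with runs as a block (adjusted p at most 0.0244). With TNF-α the adjusted p was 0.0549 without replicate 2. CFLAR arrays ran between 12.33 and 12.57 with MALP2 and between 11.54 and 11.96 with Pam3CSK4, above every GM array (9.56 to 11.52). BIRC2, whose protein cIAP1 is a ubiquitin ligase of TNF receptor complexes, was higher with TNF-α (1.01 ± 0.14), Pam3CSK4 (0.68 ± 0.13), MALP2 (0.99 ± 0.13) and imiquimod (0.89 ± 0.13), with a block adjusted p of at most 0.011, and stood at 0.07 with N-9. With TNF-α, MALP2 and imiquimod all BIRC2 arrays lay above every GM array.

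Of the 14 adaptors and effectors, 2 were higher and 0 lower with TNF-α and with Pam3CSK4, against 0.72% and 2.17% of all probesets that passed. With MALP2 3 were higher and 0 lower, against 6.95%, with imiquimod 2 were higher and 1 lower, against 10.9%, and with N-9 2 were higher and 4 lower, against 17.4%. BID, which links caspase-8 to mitochondria, was the third with MALP2 (0.56 ± 0.12). MAP3K14, the kinase NIK of the noncanonical NFκB pathway, was lower with N-9 (-0.95 ± 0.18) and imiquimod (-0.77 ± 0.21, adjusted p = 0.00722, 0.0669 with runs as a block, 0.0511 without imiquimod replicate 2). TRAF3, an adaptor that restrains NIK, was lower with N-9 (-1.27 ± 0.18, adjusted p = 1.52e-08), with arrays between 6.18 and 9.55, against 8.55 to 10.3 in GM. The median difference over this list lay between -0.16 and 0.23, and no gene of the 3 lists passed with HEC or CMC. Fits without 1 run are not given for the genes of the 3 lists. Whether their calls rest on 1 run, such as those of TRAF3 and TNFRSF10D with N-9, is therefore not shown.

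**Figure D5:**
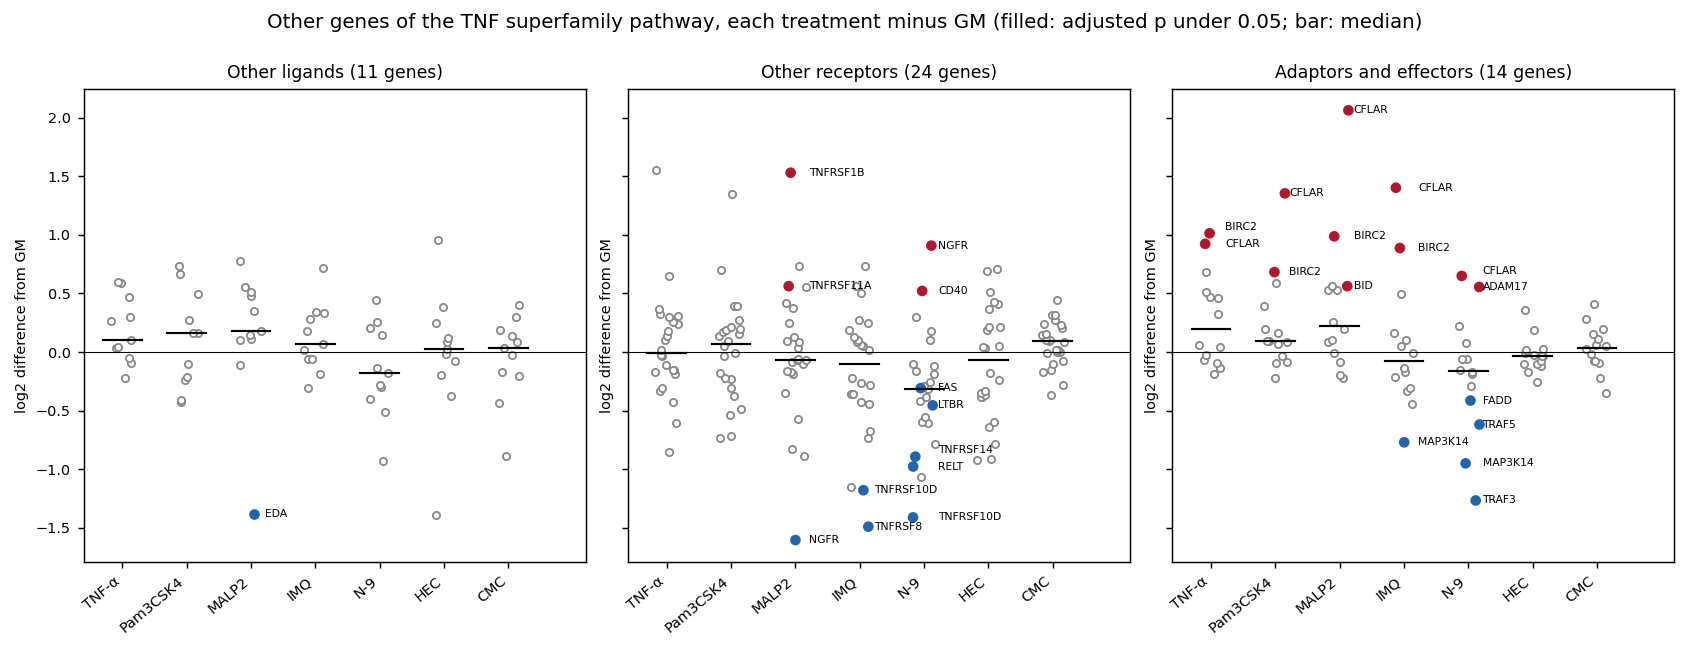
Log2 difference from GM (vertical axis) for each gene of 3 lists, other ligands, other receptors, and adaptors and effectors, by treatment from left to right. Filled points passed at an adjusted p under 0.05, red higher and blue lower than GM, and the bar is the list median. CFLAR is filled with all 5 PICs and reaches 2.06 with MALP2.

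Across the 103 arrays the genes most like TNFSF10 were CBR3 (Pearson r = 0.817), SAMD9L (0.802) and GBP3 (0.779). Those most like TNFRSF21 were FAT2 (0.819), FGFR2 (0.817) and KRT15 (0.768), and those most like TNFSF15 were E2F7 (0.735), PAWR (0.713) and JMJD1C (0.701). TNFRSF12A was most like SLC49A4 (0.743), TNFRSF10B most like THBD (0.673), TNFSF9 most like RNA45SN5 (0.648) and TNFRSF9 most like GCH1 (0.624). For TNF and LTB no gene exceeded 0.49. The arrays share treatments and runs, so these values only describe these arrays.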

How the data were processed

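RNA was measured on 105 Affymetrix U133 Plus 2.0 arrays of 8 groups. The authors deposited 1 log2 signal per probeset and array. The submitters' notes name MAS5 and GCOS 1.3, whereas the methods describe RMA in GeneSpring. The deposited linear signals go down to 0.1 with a median trimmed mean of 500.1 over arrays, the form of MAS5 signals, in which dim probesets are noisy. The deposited log2 values of 103 arrays were quantile normalized and tested in limma 3.58.1 (R 4.3.3, data.table version 1.17.8) with 1 mean per group and Benjamini-Hochberg adjustment over 54613 probesets, leaving out 62 control probesets. Dim probesets were kept. The limma step was tested on simulated data. The number of arrays limits the precision.

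Of the probesets, 41091 name 1 gene, 1801 several, and 11721 are not listed. Symbols were updated for 41037 through RefSeq. The genes named are the 9 members with all their probesets, and for each list and treatment up to 3 passing genes with the largest change. For each member, up to 3 genes outside the 3 lists that correlate best are also named. The members and lists were chosen with earlier results of these data known. Alternatives were the deposited values without normalization, an offset of 16, a filter at a mean log2 of 6, all 105 arrays, runs as a random block, GM replicates 1 to 9 as controls with and without a replicate block, only the groups compared, the analysis of variance of the methods, any probeset of a gene, and each array left out. Leaving out each run was chosen after seeing the data.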

Additional observations from a re-analysis of the deposited data

Results flagged for a closer look

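In 9 groups, out of 19 probesets in 7 treatments, the highest or lowest array stood apart from the others of its group, where chance gives about 1 in 20 groups. TNFSF9 was high in CMC replicate 1 (8.77, next array 8.31) and TNF low in CMC replicate 8 (5.31, next 6.17). TNFRSF9 at 207536_s_at was low in N-9 replicate 5 (2.87, next 5.09). At 211786_at TNFRSF9 was low in MALP2 replicate 1 (3.96, next 5.77) and in imiquimod replicate 3 (3.73, next 5.49), while at 238950_at it was high in imiquimod replicate 3 (7.38, next 4.60). TNFRSF12A was low in Pam3CSK4 replicate 5 (12.31, next 12.67) and in imiquimod replicate 3 (12.29, next 12.64). TNFRSF10B at 210405_x_at was low in HEC replicate 8 (5.63, next 7.14). Of these 9, 4 belong to TNFRSF9, whose probesets were dim, and 3 to imiquimod replicate 3.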

How the results depend on the processing

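The members passing at the brightest probeset were 1 (TNF-α), 1 (Pam3CSK4), 2 (MALP2), 3 (imiquimod), 3 (N-9), 0 (HEC and CMC), and 14 contrasts among the PICs. Smaller changes of these counts are listed only in part. Without normalization 3 passed with MALP2 and 4 each with imiquimod and N-9. An offset of 16 gave 2 with Pam3CSK4 and 4 with N-9, and a mean log2 of at least 6 gave 1 with MALP2 and 5 with N-9. All 105 arrays gave 0 with Pam3CSK4, 1 with MALP2 and 2 with N-9. Both all 105 arrays and runs as a random block gave 11 contrasts among the PICs. Runs as a random block gave 0 with TNF-α and Pam3CSK4 and 1 each with MALP2, imiquimod and N-9. Fits of only the arrays compared gave 0 with TNF-α, 1 with MALP2 and 8 contrasts among the PICs. The analysis of variance, with the fold change over 2 of the methods, gave 2 each with TNF-α and Pam3CSK4 and 0 with N-9. Counting any probeset gave 3 with TNF-α, 3 with Pam3CSK4, 5 with N-9 and 23 contrasts. Leaving out 1 run gave 0 with TNF-α and Pam3CSK4 for either run, 0 or 1 with MALP2, 0 with imiquimod without replicates 1 to 3, 1 with HEC without replicates 7 to 9, and 10 to 16 contrasts among the PICs, and leaving out 1 array gave 2 to 5 with N-9, 2 with imiquimod, 1 to 2 with MALP2, 0 to 1 with Pam3CSK4 and 0 with TNF-α. Causes of these changes were not tested. Shares over all probesets are given above only for the main fit and for the differences from GM with runs as a block.

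Replicate numbers were not used as pairs in the main fit, and whether they pair samples was not settled. Same-numbered arrays of a treatment and GM correlated above 0.1 in 6 of 9 pairs each for N-9 and HEC. They did so in 1 of 5 for TNF-α and 0 for the others. With N-9 3 arrays and with HEC 2 arrays correlated best with their own number. Against GM replicates 1 to 9 alone, 5 members each passed with N-9, MALP2 and TNF-α, 4 each with Pam3CSK4 and imiquimod, and 2 with CMC. With the replicate block 6 passed with TNF-α, 5 each with Pam3CSK4, MALP2, imiquimod and N-9, and 2 with CMC. The shares of all probesets that passed in these fits are not given, so the counts are not read as a result about the members. With that block TNF with imiquimod turned to 0.63 (adjusted p = 0.0453), against -0.06 over all GM arrays, and HEC against CMC gave 0. Over all 19 probesets, 28 differences from GM passed, and of 223 alternative fits of them 188 passed, 35 did not and 0 changed sign. These losses were uneven: with runs as a block 13 of the 28 passed and 15 did not. The 223 do not include fits without 1 array or 1 run. Of 184 fits without 1 array, 134 passed and 50 did not. The dim probesets of TNFRSF9 and 1556645_s_at of TNFRSF10B limit what can be seen there.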
